A study of Mus musculus with 6 samples.

Results

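Mrgprg, Clic5, Lypd5, F2r, Cd109, Egflam, Scin, Sgip1 and Tuba4a are 9 of the 31053 genes counted in stromal vascular cells of mouse inguinal white adipose tissue (iWAT). They were chosen by their measured UMI levels, which were higher at 57 than at 9 weeks in these libraries, so the age differences below are descriptions without a test. Each gene was found by its symbol in the gene list deposited with the counts, and every symbol matched 1 row. The libraries came from C57BL/6 mice that were young (9 weeks) or aged (57 weeks) and that all spent 3 weeks at 30 °C first. In the 2 weeks that followed, mice stayed at 30 °C (thermoneutrality, TN), moved to 6 °C for the last 3 days (3D cold) or spent all 14 days at 6 °C (14D cold). Live cells were sorted and CD45+ immune cells removed before single-cell RNA sequencing with 3' UMI counting, with 1 library per age and temperature. The methods state that male mice were used, either C57BL/6JN from the National Institute of Aging colony or C57BL/6J from Jackson. They also say that mice were pooled only where this was indicated. The supplier and the number of mice of each single library are not given in the sources used here, and a difference between suppliers cannot be told apart from age.

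These genes have little in common by function. Mrgprg encodes an orphan G protein-coupled receptor of the Mas-related family, best known from sensory neurons and mast cells, and F2r encodes PAR1, the receptor that thrombin opens by cleavage. Lypd5 encodes a lipid-anchored surface protein with Ly6/uPAR domains, and Cd109 a lipid-anchored member of the alpha-2-macroglobulin family that acts as a TGF-beta co-receptor. Clic5 belongs to the chloride intracellular channel family and sits with ezrin at the cortical actin of endothelial cells and podocytes. Scin encodes adseverin, a calcium-dependent actin-severing protein of the gelsolin family. Egflam encodes pikachurin, a matrix ligand of dystroglycan, Sgip1 an endocytic adaptor known from the brain, and Tuba4a an alpha-tubulin isotype. The cells studied were mainly adipocyte stem and precursor cells (ASPCs), fibroblast-like cells of fat among which Dpp4+ cells are known as interstitial progenitors, Icam1+ cells as committed preadipocytes and Cd142+ cells as a further stromal population.

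Of 68103 barcodes, 57326 cells were kept, and cells were gated by counts of marker genes that do not include the 9 genes. The gate gave 21083 Dpp4+ fibroblast-like cells, 15711 Icam1+ preadipocyte-like cells, 4888 Cd142+ fibroblast-like cells, 4229 endothelial-like cells and 1012 smooth muscle cell (SMC)/pericyte-like cells, called by their marker below. A further 7664 ASPCs lay between classes, and 13.5% of the 49346 ASPCs had their best 2 class scores within the gate's margin of 0.25 SD. Libraries held 52068837 to 88508349 UMIs, and the median barcode had 7225 to 8954 UMIs in the young libraries but 6232, 6540 and 2588 at aged TN, 3D cold and 14D cold. In the aged 14D cold library 36.5% of kept cells had under 2000 UMIs and 24.9% lay between classes, against at most 3.48% and 12.6% elsewhere. Pairs of libraries shared 30 to 44 barcodes, where 16.8 to 21.1 would be shared by independent draws. With 1 library per age and temperature, p-values over libraries measure only the spread between these libraries, and the intervals of shares (exact binomial, 95%) cover counting error only.

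In the GRCm38 annotation all 9 genes are protein coding and overlap no gene on the same strand. Mrgprg spans chr7:143763710-143766993 (minus strand), Clic5 chr17:44188584-44280172 (plus) and Lypd5 chr7:24349196-24355109 (plus). F2r spans chr13:95601803-95618487 (minus), Egflam chr15:7206120-7398395 (minus) and Sgip1 chr4:102741297-102973628 (plus). Cd109 lies at chr9:78615546-78716253 (plus), Scin at chr12:40059769-40134228 (minus) and Tuba4a at chr1:75214228-75219865 (minus), where it overlaps Stk16 on the other strand. Antisense genes overlap Cd109, Egflam and Sgip1. RefSeq promoters of GRCm38.p6 were matched for 8 of the 9 genes, without Cd109. Tuba4a had its highest ASPC level in Dpp4+ cells, but within its spread over libraries, and its promoter is not shown. The 250 bases before the RefSeq start are shown for 3 other genes whose level among the ASPC classes was highest in Dpp4+ cells, Mrgprg (chr7:143766994-143767243, minus strand), Clic5 (chr17:44188322-44188571, plus strand) and Lypd5 (chr7:24348946-24349195, plus strand), with matches to searched motifs in capitals.
Mrgprg: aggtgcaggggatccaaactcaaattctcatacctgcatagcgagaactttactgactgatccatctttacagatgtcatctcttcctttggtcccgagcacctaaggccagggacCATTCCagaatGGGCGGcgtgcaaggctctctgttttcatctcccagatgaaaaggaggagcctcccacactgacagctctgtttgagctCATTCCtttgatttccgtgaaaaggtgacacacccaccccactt
Clic5: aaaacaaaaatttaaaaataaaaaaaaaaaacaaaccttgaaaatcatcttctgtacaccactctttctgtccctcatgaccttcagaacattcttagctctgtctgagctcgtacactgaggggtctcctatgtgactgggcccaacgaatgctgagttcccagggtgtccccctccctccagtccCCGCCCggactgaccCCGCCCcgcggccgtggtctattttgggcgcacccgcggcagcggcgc
Lypd5: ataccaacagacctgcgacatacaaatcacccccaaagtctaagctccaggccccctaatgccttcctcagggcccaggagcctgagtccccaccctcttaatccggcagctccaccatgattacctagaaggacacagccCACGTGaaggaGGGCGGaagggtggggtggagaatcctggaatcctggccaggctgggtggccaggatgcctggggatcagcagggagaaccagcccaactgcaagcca

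The motifs searched on both strands were TATAAA (the TATA box), CCAAT (read by NF-Y), TGANTCA (read by AP-1), CACGTG (an E-box), GGGCGG (read by Sp1-type factors) and GGAATG (read by TEAD factors), and no match in these windows overlapped another. All 3 promoters held GGGCGG, with 2 matches in Clic5 and 1 in each of the others. Of all 27025 promoters, 32.7% held it. Mrgprg also had 2 matches of GGAATG (12.6% of promoters), and Lypd5 had 1 of CACGTG (5.93%). None of the 3 held TATAAA (12.9%), CCAAT (34.2%) or TGANTCA (6.87%). Clic5 had 13 CpG dinucleotides in this window, Mrgprg 5 and Lypd5 4, against a median of 5 over all promoters.

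Levels are given as CPM, UMI counts scaled to the total UMIs of the cells of a class in a library, normalised between the 6 libraries of that class, and are not compared between genes. All aged libraries were above all young libraries for 9 of the 9 genes in Dpp4+ cells, where the same held for 11.1% of all genes tested, and for 9 of 9 in Icam1+ cells, where it held for 9.95%. In Cd142+ cells it held for 8 of 9, against 11.1% of genes, and Egflam was the exception. Because age chose these genes, nothing is read from these counts. Over the 27 pairs of gene and class the median log2 difference, aged over young, was 2.44.

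Mrgprg, Clic5 and Lypd5 differed most in Dpp4+ cells in CPM, though not as a ratio of aged to young. Mrgprg was at 6.91, 21.4 and 10.4 CPM in young TN, 3D cold and 14D cold Dpp4+ cells and at 68.9, 109 and 107 CPM in the aged ones. The aged mean was 7.38-fold higher, the groups did not overlap, and within the young the 3D cold library stood above the other two. Clic5 had 8.64, 11.6 and 13.5 CPM in young and 48.8, 61.7 and 54.4 CPM in aged Dpp4+ cells, a 4.89-fold higher mean with a narrow spread within each age. Lypd5 was nearly undetected in young Dpp4+ cells, with 34, 39 and 35 UMIs in all (0.967, 1.23 and 0.964 CPM), and reached 20.9, 37.7 and 43.7 CPM in aged cells. Its mean was 32.3-fold higher in aged cells, the largest ratio of the 9 genes in this class. As ratios, Mrgprg was 8.60-fold and 7.94-fold higher in aged Icam1+ and Cd142+ cells, and Clic5 10.9-fold in Cd142+ cells, from young means of at most 1.02 CPM.

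**Figure D1:**
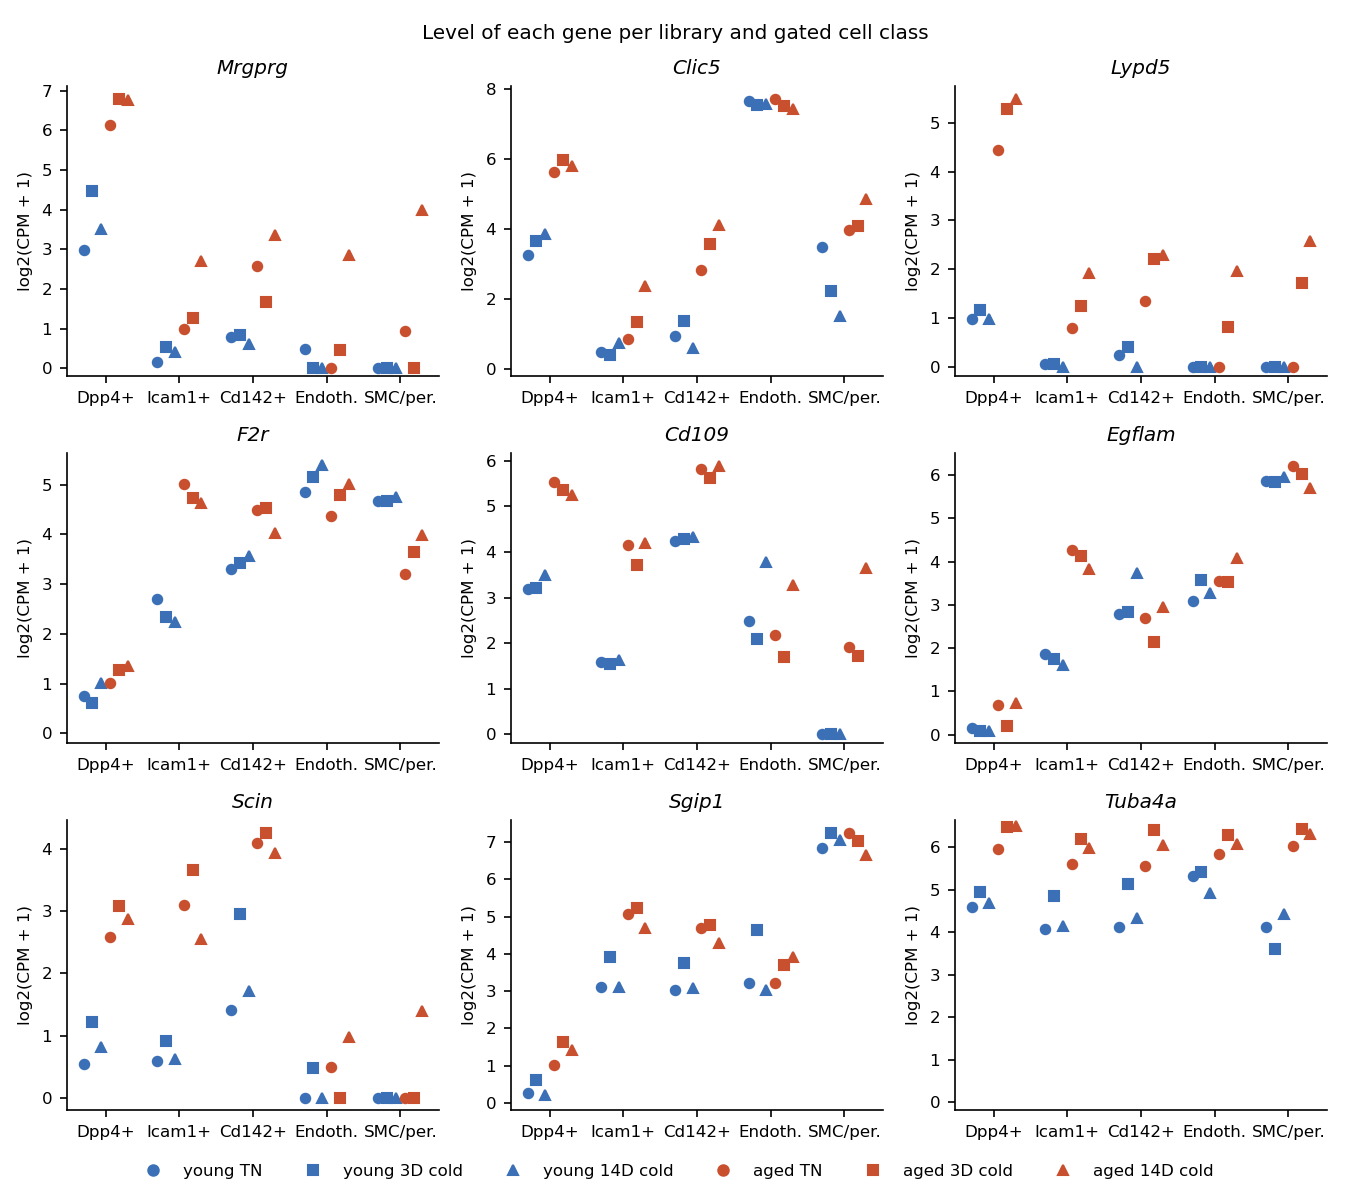
Level of each of the 9 genes, as log2(CPM + 1), in 5 gated cell classes, with 1 point per library, young in blue and aged in red, and the shape giving the temperature. Among ASPCs, Mrgprg, Clic5 and Lypd5 reach their highest levels in aged Dpp4+ cells, where Mrgprg lies at 68.9 to 109 CPM in aged and 6.91 to 21.4 CPM in young libraries, while endothelial Clic5 and SMC/pericyte Egflam and Sgip1 overlap between the ages.

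The other ASPC classes held little of these 3 transcripts. In Icam1+ cells Mrgprg reached at most 5.57 CPM, Clic5 4.18 CPM and Lypd5 2.78 CPM, each in the aged 14D cold library. Mrgprg in that library was also found in every other class, with 9.32 CPM in Cd142+, 6.31 CPM in endothelial and 14.8 CPM in SMC/pericyte cells. In Cd142+ cells it was at 0.526 to 0.808 CPM in young and 2.17 to 9.32 CPM in aged libraries. How much of these low levels is RNA from other cells was not tested. Clic5 in Cd142+ cells went from 0.921, 1.62 and 0.526 CPM in young to 6.10, 11.0 and 16.3 CPM in aged libraries.

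F2r, Egflam and Sgip1 differed most in CPM in Icam1+ cells, the preadipocyte-like class. F2r was at 5.50, 4.09 and 3.73 CPM in young and at 31.3, 25.7 and 23.9 CPM in aged TN, 3D cold and 14D cold Icam1+ cells, and the mean was 6.08-fold higher. Egflam had 2.62, 2.38 and 2.03 CPM in young and 18.4, 16.4 and 13.3 CPM in aged libraries, a 6.83-fold higher mean. For both genes the order of temperatures was the same at the 2 ages, with TN highest and 14D cold lowest. Sgip1 went from 7.70, 14.2 and 7.62 CPM to 32.6, 36.2 and 25.1 CPM, a 3.18-fold higher mean, and was highest after 3D cold at both ages. In Dpp4+ cells these 3 transcripts stayed at or below 2.1 CPM in every library, and the ratio for Sgip1 there was larger, at 5.32-fold.

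In Cd142+ cells, F2r and Sgip1 were also higher in each aged library, whereas Egflam was not. F2r had 8.85, 9.70 and 10.9 CPM in young and 21.4, 22.1 and 15.4 CPM in aged Cd142+ cells, and Sgip1 7.19, 12.4 and 7.54 CPM against 24.8, 26.6 and 18.4 CPM. Egflam had 5.90, 6.14 and 12.3 CPM in young and 5.53, 3.43 and 6.72 CPM in aged cells, so that the ages overlapped and the aged mean was lower, at 5.23 ± 1.66 against 8.11 ± 3.62 CPM (SD, n = 3).

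Cd109 was higher in aged cells of all 3 ASPC classes, from different starting levels. In Cd142+ cells it had 17.9, 18.4 and 19.1 CPM in young and 55.7, 48.6 and 57.9 CPM in aged libraries, a 2.93-fold higher mean. In Dpp4+ cells the young values were 8.10, 8.29 and 10.4 CPM and the aged values 45.3, 40.1 and 36.9 CPM. In Icam1+ cells they were 1.99, 1.92 and 2.07 CPM and 16.7, 12.2 and 17.4 CPM, a 7.75-fold higher mean. The log2 difference of Dpp4+ over Cd142+ cells was -0.46 in the aged and -1.11 in the young libraries, and the change between these values was not tested.

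Scin, the gene of adseverin, was rare in young ASPCs. It had 1.66, 6.79 and 2.28 CPM in young and 16.2, 18.1 and 14.3 CPM in aged Cd142+ cells. In Icam1+ cells it went from 0.508, 0.889 and 0.551 CPM to 7.60, 11.7 and 4.87 CPM, and in Dpp4+ cells from 0.455, 1.32 and 0.772 CPM to 5.0, 7.46 and 6.33 CPM. In all 3 classes and at both ages the 3D cold library was the highest.

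Tuba4a was higher in aged libraries in every class examined. It had 23.3, 30.0 and 24.8 CPM in young and 61.6, 87.7 and 89.5 CPM in aged Dpp4+ cells, 15.9, 27.9 and 16.8 CPM and 47.5, 71.8 and 62.7 CPM in Icam1+ cells, and 16.4, 34.4 and 19.3 CPM and 46.5, 83.5 and 65.5 CPM in Cd142+ cells. Endothelial cells went from 38.8, 41.6 and 29.3 CPM to 56.4, 77.0 and 66.5 CPM. SMC/pericyte cells went from 16.4, 11.3 and 20.4 CPM to 64.4, 84.7 and 79.0 CPM, from 6 to 11 UMIs in young and 37 to 70 UMIs in aged libraries. The ages did not overlap in any of these 5 classes.

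Outside the ASPCs the ages overlapped for most of the other genes. Endothelial Clic5 was at 199, 186 and 188 CPM in young and at 209, 181 and 172 CPM in aged libraries, levels far above those of any ASPC class. SMC/pericyte Sgip1 averaged 131 ± 18.8 CPM in young and 126 ± 25.7 CPM in aged libraries (SD, n = 3), and Egflam 58.3 ± 2.65 and 62.6 ± 10.9 CPM. F2r ran the other way in vascular cells, with 24.5, 24.4 and 26.0 CPM in young and 8.28, 11.5 and 14.8 CPM in aged SMC/pericyte cells, which rest on 12 to 14 and 5 to 9 UMIs. SMC/pericyte Clic5 was higher in each aged library, from 1 to 5 UMIs in young and 7 to 17 UMIs in aged libraries. In endothelial cells F2r had 27.9, 34.7 and 41.2 CPM in young and 19.8, 26.7 and 31.5 CPM in aged libraries, lower at each temperature, although the ages overlapped.

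RNA of other cell types in the ASPC classes moved with age and library. The summed level of the 10 endothelial markers, all detected in each library, was 9.47 to 13.3 CPM in young and 14.5 to 45.3 CPM in aged Dpp4+ cells, highest in the aged 14D cold library. The 4 haemoglobin genes summed to 4.11, 153 and 3.73 CPM in young TN, 3D cold and 14D cold and 138 to 366 CPM in aged Dpp4+ cells. The 6 mesothelial markers summed to 3.86 to 8.27 CPM and 7.79 to 28.5 CPM, with the defining markers Msln and Upk1b at 0 in all 6 libraries. In Cd142+ cells the endothelial sum was 11.1 to 13.4 CPM in young and 15.4, 17.7 and 100.2 CPM in aged libraries. The part of such RNA in the age differences was not tested. In endothelial cells themselves, where these markers summed to 7933 to 9910 CPM, Mrgprg had at most 1 UMI and Lypd5 at most 2 UMIs in each library other than aged 14D cold. Other genes of the set were well detected there, such as Clic5 at 172 to 209 CPM, F2r at 19.8 to 41.2 CPM and Egflam at 7.51 to 16.0 CPM. In Cd142+ cells Clic5 was highest in the aged 14D cold library, at 16.3 CPM, where the endothelial sum was also highest.

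To tell more positive cells from higher levels per cell, every cell with at least 2000 UMIs was thinned to 2000 UMIs, which left out 36.5% of kept cells in the aged 14D cold library, 3.48% at aged TN and none elsewhere. Mrgprg was then detected in 1.70%, 3.98% and 1.81% of young Dpp4+ cells and in 10.9%, 17.3% and 16.1% of aged ones, with intervals of 9.56% to 12.4% in the lowest aged and 3.38% to 4.65% in the highest young library. Before thinning the shares were 4.15% to 10.0% and 24.4% to 36.7%. In endothelial cells, taken as a comparison class, whose median depth was 3325 UMIs against 7570 UMIs in Dpp4+ cells, 0 of the thinned cells were positive in 5 libraries, and 0.693% (interval 0.143% to 2.01%) at aged 14D cold. Clic5 was detected in 1.89%, 2.00% and 2.84% of young and 8.68%, 11.2% and 9.53% of aged Dpp4+ cells. Lypd5 went from 0.139%, 0.237% and 0.161% to 3.18%, 5.37% and 6.79%.

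The shares also differed in most of the other pairs of gene and class, but not in all. They overlapped between the ages for Mrgprg and Egflam in Cd142+ cells, Clic5 in Icam1+ cells and F2r in Dpp4+ cells. F2r was detected in 0.160% of young and 0.175% of aged Dpp4+ cells on average, from 20 and 14 positive cells. These are too few to tell whether the CPM difference counted above holds in the thinned cells. F2r was detected in 1.13%, 0.737% and 0.762% of young and 5.97%, 4.87% and 4.05% of aged Icam1+ cells, and Egflam in 0.612%, 0.201% and 0.419% against 3.29%, 3.16% and 2.79%. Sgip1 was detected in 1.55%, 2.91% and 1.14% of young and 7.16%, 7.18% and 4.75% of aged Icam1+ cells. For each of these genes the lowest aged share was above the highest young share. Cd109 was found in 3.11%, 4.04% and 3.06% of young and 11.0%, 9.10% and 10.9% of aged Cd142+ cells, and Tuba4a in 4.20%, 5.35% and 4.71% against 9.99%, 14.3% and 15.6% of Dpp4+ cells. Endothelial Clic5 was found in 29.6% to 32.2% of cells in all 6 libraries, a gene and class in which the level overlapped between the ages too.

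**Figure D2:**
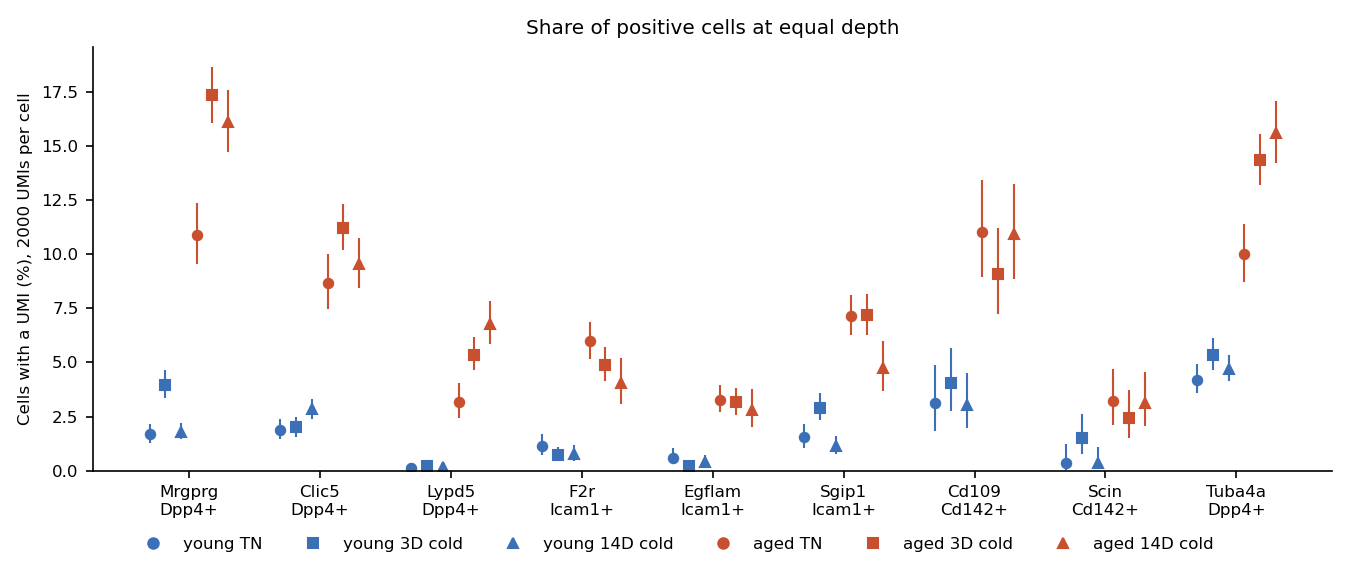
Share of cells with at least 1 UMI (percent) after thinning each cell to 2000 UMIs, for each gene in 1 ASPC class, with 1 point per library and 95% exact binomial intervals. Mrgprg lies at 1.70% to 3.98% in young and 10.9% to 17.3% in aged Dpp4+ cells, and the intervals of Scin in Cd142+ cells reach across the ages.

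Per positive cell the counts moved far less. Mrgprg had 1.19 ± 0.03 UMIs per positive thinned cell in young and 1.35 ± 0.06 in aged Dpp4+ cells (SD, n = 3), Lypd5 1.04 and 1.35, Clic5 1.09 and 1.12, and Cd109 1.01 and 1.07. On the log2 scale the mean UMIs per thinned cell of Mrgprg differed by 2.85 between the ages, of which 2.65 lay in the share of positive cells and 0.20 in the UMIs per positive cell. For Lypd5 the parts were 4.89 and 0.39 of 5.28, and for Clic5 2.12 and 0.04 of 2.17. At such low levels a share says little about the number of expressing cells, since the same rise spread evenly over all cells would, by Poisson counting, have given share differences of 2.72, 5.23 and 2.11.

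Whether UMIs were gathered in fewer cells than Poisson counting gives at the same mean was therefore measured at both ages. The ratio of the observed to the Poisson share at 2000 UMIs was 0.854 ± 0.021 in young and 0.816 ± 0.015 in aged Dpp4+ cells for Mrgprg, and 0.964 ± 0.064 and 0.771 ± 0.057 for Lypd5 (SD, n = 3). The other genes lay nearer to 1, with aged ratios of 0.940 for Clic5, 0.971 for Cd109 and 0.935 for Tuba4a in Dpp4+ cells, and 0.902 for F2r, 0.984 for Egflam and 0.994 for Sgip1 in Icam1+ cells. With 4000 UMIs per cell, which leaves out more cells, the aged ratios were 0.710 for Mrgprg and 0.635 for Lypd5, and the young ones 0.727 and 0.786. Mrgprg UMIs were thus gathered in fewer Dpp4+ cells than Poisson counting gives at both ages, while for Lypd5 the young value rests on 22 positive cells at 2000 UMIs. Clic5 lay at 0.903 in young and 0.924 in aged cells at this depth, Cd109 at 0.949 and 0.962, and Sgip1 in Icam1+ cells at 0.965 and 0.956.

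**Figure D3:**
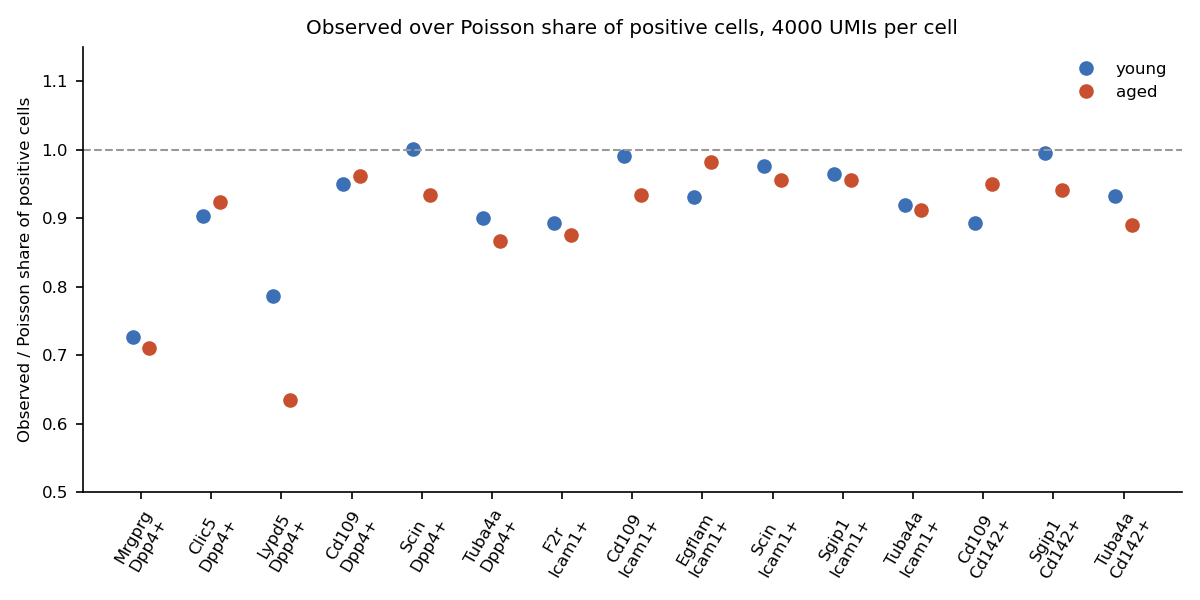
Observed share of positive cells divided by the share that Poisson counting gives at the same mean, at 4000 UMIs per cell, for pairs of gene and class, as the mean of 3 libraries per age (blue young, red aged). The dashed line marks 1, and the axis starts at 0.5. Mrgprg (0.727 and 0.710) and Lypd5 (0.786 and 0.635) in Dpp4+ cells are the lowest, and the other pairs lie between 0.867 and 1.00.

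Within aged Dpp4+ cells, the cells positive for Mrgprg and Lypd5 overlapped more than their shares give. Among 8002 thinned cells, 106 held both transcripts where 67.1 would by their shares within each library, a ratio of 1.58 (1.47 to 1.69 over the 3 libraries). Mrgprg and Clic5 were together in 152 cells against 125 (ratio 1.21, 1.07 to 1.30), and Mrgprg and Cd109 in 96 against 91.4 (1.05, 0.91 to 1.33). Tuba4a and Mrgprg met in 170 cells against 172. These ratios are descriptions of cells of the same 3 libraries.

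The same cells differed in other transcripts. Lypd5-positive cells more often held Krtdap (ratio 1.48, 1.32 to 1.60), Dmkn (1.40) and Sbsn (1.39), neighbouring genes known from keratinocytes, and less often Cd9 (0.62, 0.52 to 0.82), Cxcl13 (0.63), which encodes a B cell chemokine, and Pltp (0.65). Mrgprg lay on the same side of 1 for these genes, with 1.27 for Sbsn, 1.24 for Dmkn, 1.21 for Krtdap, 0.74 for Cd9 and 0.70 for Pltp. In young Dpp4+ cells Mrgprg and Sbsn met at a ratio of 1.51, and Clic5 met Dmkn at 2.43 (2.21 to 2.53) and Krtdap at 2.45, against 1.23 and 1.17 in aged cells. The ratios of the 2 ages are not on 1 scale, since the highest possible ratio is lower where a partner is more common. By its shares Dmkn was expected in 231 of 602 aged and 38.7 of 201 young Cd109-positive Dpp4+ cells. Cd109 ran the other way from Mrgprg and Lypd5 for Cd9 and Krtdap in aged Dpp4+ cells, at 1.31 (1.19 to 1.52) and 0.73 (0.62 to 0.81). It met Gpnmb at 1.24, Dmkn at 0.88, Sbsn at 0.94 and Cxcl13 at 1.00. Scin also ran the other way, with 1.51 for Cd9 and 0.68 for each of Dmkn, Krtdap and Sbsn, from 100 positive cells. In young Dpp4+ cells Cd109 lay above 1 with Dmkn (1.52, 1.28 to 1.65), Sbsn (1.20, 1.06 to 1.29) and Cd9 (2.40), and at 1.00 with Krtdap.

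**Figure D4:**
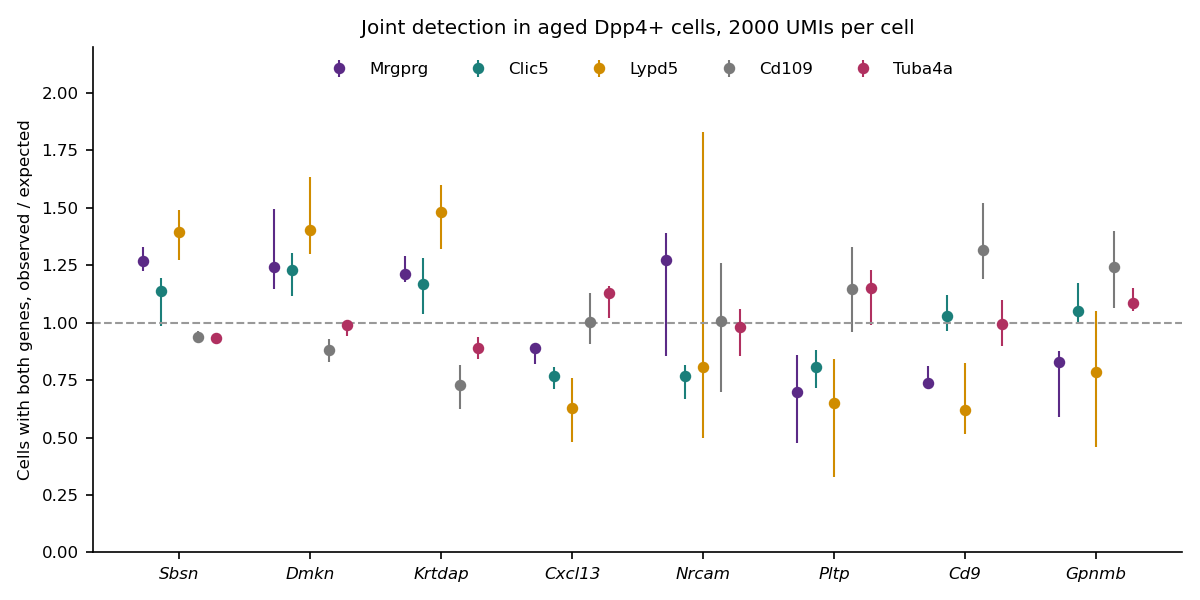
Number of aged Dpp4+ cells with both transcripts divided by the number expected from their shares within each library (2000 UMIs per cell), for 5 genes of the set against 8 partner genes. Points pool 3 libraries and bars run from the lowest to the highest library. Lypd5 and Mrgprg lie above 1 with Sbsn, Dmkn and Krtdap and below 1 with Cd9, where Cd109 lies at 1.31.

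In aged Icam1+ cells, F2r and Egflam were together in 18 of 7601 thinned cells against 12.4 (ratio 1.45, 1.07 to 1.79). Egflam met Lamc3, a laminin chain gene used in the gate, at 1.35 (1.01 to 1.72) and Tfpi2, a protease inhibitor gene, at 0.49 (0.40 to 0.61). Sgip1 met Gpnmb, known from lipid-laden macrophages, at 1.29 (1.24 to 1.41). Scin and Cxcl13 met in 22 cells against 6.51 (ratio 3.38, 2.35 to 4.60), the highest ratio of a member in this class. Cd109 and Tuba4a met less often, in 14 cells against 23.8 (0.59, 0.39 to 0.77). In aged Cd142+ cells F2r met F3, the gate's tissue factor gene, at 1.49 (1.47 to 1.54), and Sgip1 met Col15a1 at 1.54 (1.51 to 1.58) and Cxcl14 at 1.36, both genes of the Icam1+ gate.

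Which class carried each gene was tested over libraries, with library as a block, since age and not class chose the genes. Log2 differences ± SE are given with the adjusted p of edgeR (quasi-likelihood, over all genes), and mean CPM over all 6 libraries with 1 scaling of all classes. Between Dpp4+ and Icam1+ cells 8 of 9 genes differed, where 64.3% of all genes tested did, with 5 higher and 3 lower in Dpp4+ cells. Mrgprg was 5.38 ± 0.24 higher in Dpp4+ cells (58.1 against 1.67 CPM, adjusted p = 1.3e-16), and Clic5 4.64 ± 0.43 (adjusted p = 3.3e-10). Lypd5 and Scin passed the filter on low counts only through the aged libraries, whose levels chose them. Their values in this and all later class comparisons are therefore descriptions, although the counts of genes include them. Lypd5 was 4.46 ± 0.19 higher in Dpp4+ cells. The difference was already there in the young libraries alone, at 5.29 for Mrgprg and 4.51 for Clic5. Icam1+ cells had more Egflam (log2 difference -5.10 ± 0.54, adjusted p = 4.8e-09), Sgip1 (-4.51 ± 0.31, adjusted p = 8.1e-13) and F2r (-3.72 ± 0.41, adjusted p = 1.1e-08). Cd109 was 1.56 ± 0.23 higher in Dpp4+ cells and Tuba4a 0.34 ± 0.11, and Scin had -0.21 ± 0.19.

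Between Dpp4+ and Cd142+ cells 8 of 9 genes differed, 3 higher and 5 lower in Dpp4+ cells, against 48.1% of all genes. Mrgprg, Clic5 and Lypd5 were 4.17 ± 0.27, 2.32 ± 0.42 and 3.40 ± 0.22 higher in Dpp4+ cells, whereas Cd109 (-0.73 ± 0.23, adjusted p = 0.0095) and Scin (-1.62 ± 0.21) were higher in Cd142+ cells. Tuba4a was not called (0.19 ± 0.12, adjusted p = 0.19). Between Icam1+ and Cd142+ cells 5 of 9 genes differed, all higher in Cd142+ cells, against 34.5% of all genes. They were Cd109 (-2.30 ± 0.25), Clic5 (-2.32 ± 0.63) and Mrgprg (-1.21 ± 0.41), with Scin (-1.41 ± 0.21) and Lypd5 (-1.06 ± 0.30) as descriptions. Mrgprg and Lypd5 were not called in the aged libraries alone (adjusted p = 0.18 and 0.077, edgeR). F2r (-0.10 ± 0.35), Egflam (0.15 ± 0.41), Sgip1 (0.28 ± 0.25) and Tuba4a (-0.15 ± 0.12) did not pass the test.

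Vascular cells carried some of these genes at higher levels than the mean of the 3 ASPC classes. This mean was taken on the log scale, so that 1 class of low level pulled it down, as Dpp4+ cells did for Egflam (0.298 CPM) and F2r (1.12 CPM). Endothelial Egflam, at 9.64 CPM, was no higher than in Icam1+ cells (10.3 CPM) and near its level in Cd142+ cells (7.43 CPM). In endothelial cells 7 of 9 genes differed, against 80.2% of all genes, with Clic5 (5.01 ± 0.27, adjusted p = 2.0e-15, edgeR), F2r (2.09 ± 0.34) and Egflam (1.82 ± 0.47) higher. Clic5 was at 169 ± 10.3 CPM there (SD, n = 6), the highest level of the gene in any class. The endothelial excess of F2r was 3.12 in the young and 1.16 in the aged libraries, and the lower endothelial Cd109 (-2.13 ± 0.36) was not called in the young alone (-0.33, adjusted p = 0.26). In SMC/pericyte cells 5 of 9 differed, against 60.9% of all genes, with Egflam (4.27 ± 0.47, 51.0 CPM) and Sgip1 (3.99 ± 0.27, 108 CPM) higher and Cd109 lower. The other 2 of the 5, Lypd5 and Scin, were lower as descriptions only. Mrgprg, Clic5, F2r and Tuba4a did not pass the test there, with adjusted p between 0.059 and 0.46, and Sgip1 and Tuba4a did not in endothelial cells. Scin was near 0 in both, at 0.269 CPM in endothelial and 0.241 CPM in SMC/pericyte cells.

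Ordered by mean CPM over 6 libraries, Mrgprg ran from Dpp4+ (58.1) to Cd142+ (3.48), SMC/pericyte (2.30), Icam1+ (1.67) and endothelial cells (1.08), where the SDs of the last 4 were above their means. Clic5 ran from endothelial (169) to Dpp4+ (35.6), SMC/pericyte (10.6), Cd142+ (6.84) and Icam1+ cells (1.49), of which SMC/pericyte and Cd142+ cells lay within their spread. Sgip1 ran from SMC/pericyte (108) to Icam1+ (23.0), Cd142+ (18.1), endothelial (11.0) and Dpp4+ cells (1.02), and Egflam from SMC/pericyte (51.0) to Icam1+ (10.3), endothelial (9.64), Cd142+ (7.43) and Dpp4+ cells (0.298). For both genes the classes between the highest and the lowest lay within their spread. F2r had its highest mean in endothelial cells (27.1) and its lowest in Dpp4+ cells (1.12). It had 17.6, 16.4 and 15.3 CPM in Icam1+, Cd142+ and SMC/pericyte cells, which lay within their spread. These means and spreads join both ages. Single libraries ran from 4.13 to 34.9 CPM of F2r in Icam1+ and from 17.6 to 36.7 CPM in endothelial cells. Cd109 was highest in Cd142+ cells (40.6), then Dpp4+ (26.7) and Icam1+ cells (9.76), Scin in Cd142+ cells (11.1), and Tuba4a ran only from 39.2 CPM in SMC/pericyte to 56.8 CPM in Dpp4+ cells, within its spread over libraries, although the paired test called Dpp4+ over Icam1+ cells.

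Temperature was not used to choose the genes and was tested over the 6 libraries with age as a term, in 1 test of TN, 3D cold and 14D cold per gene and class (edgeR, adjusted over all genes). In Dpp4+ cells 2 of 9 genes were called (Mrgprg and Lypd5), against 5.69% of all genes. In Icam1+ cells 2 of 9 were (Scin and Tuba4a), against 5.71%, and in Cd142+ cells 1 of 9 (Tuba4a), against 2.56%. Lypd5 and Scin are in these counts, but their values are descriptions, as given below. Some pairs not called were also near 0 in young cells, such as Lypd5 in Icam1+ (at most 0.0423 CPM) and Egflam in Dpp4+ cells (at most 0.114 CPM). Of the 9 genes, DESeq2 gave an adjusted p to 6, 9 and 2 in these classes and called 0, 2 and 1. By edgeR 5, 8 and 5 had an unadjusted p under 0.05. Among all genes tested, 3245 of 13261, 3071 of 13135 and 1774 of 11319 did. The median log2 difference of 14D cold over TN over the 9 genes was 0.43, 0.06 and 0.41 in the 3 classes, against -0.01, 0.00 and 0.00 over all genes tested.

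Mrgprg in Dpp4+ cells was higher by 1.08 at 3D cold and by 0.61 at 14D cold than at TN on the log2 scale (adjusted p = 0.039, edgeR). Both ages had their lowest level at TN. The call was lost without the young TN library (adjusted p = 0.089) and by DESeq2 (0.18). Lypd5 in Dpp4+ cells was higher by 0.76 and 0.89 and is counted among the calls, but its values are a description, since the young libraries held 34 to 39 UMIs each and the aged ones chose the gene. Without the aged TN library its call was lost (14D cold over TN 0.23, adjusted p = 0.67), as it was without the aged 3D cold library (0.078) and by DESeq2 (0.056). Haemoglobin genes in Dpp4+ cells were also highest at 3D cold at both ages, at 153 CPM in young and 366 CPM in aged libraries, and lowest in the aged at TN (138 CPM), and their part in these differences was not tested.

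Tuba4a, the tubulin gene, was called in both Icam1+ cells (log2 difference 0.69 at 3D cold and 0.26 at 14D cold, adjusted p = 0.025, edgeR) and Cd142+ cells (0.94 and 0.41, adjusted p = 0.0051). In all 3 ASPC classes TN was lowest at both ages, and 3D cold was highest except in aged Dpp4+ cells. The haemoglobin sum in Icam1+ cells was 466 CPM in the young 3D cold library but 10.7 CPM in the aged one, the lowest aged value, and its part was not tested. Scin in Icam1+ cells was higher at 3D cold (0.63) and lower at 14D cold (-0.47) than at TN, also a description, since it lay under 1 CPM in each young library. Its sign at 14D cold turned to 0.02 without the aged 14D cold library (adjusted p = 0.11), so that the later difference rests on that shallow library. F2r and Egflam in Icam1+ cells were lower in the cold at both times (F2r -0.35 and -0.45, Egflam -0.17 and -0.43) but did not pass the test (adjusted p = 0.079 and 0.18). Clic5 in Dpp4+ cells had 0.37 and 0.36 (adjusted p = 0.11) and Cd109 -0.09 and -0.02 (0.86).

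**Figure D5:**
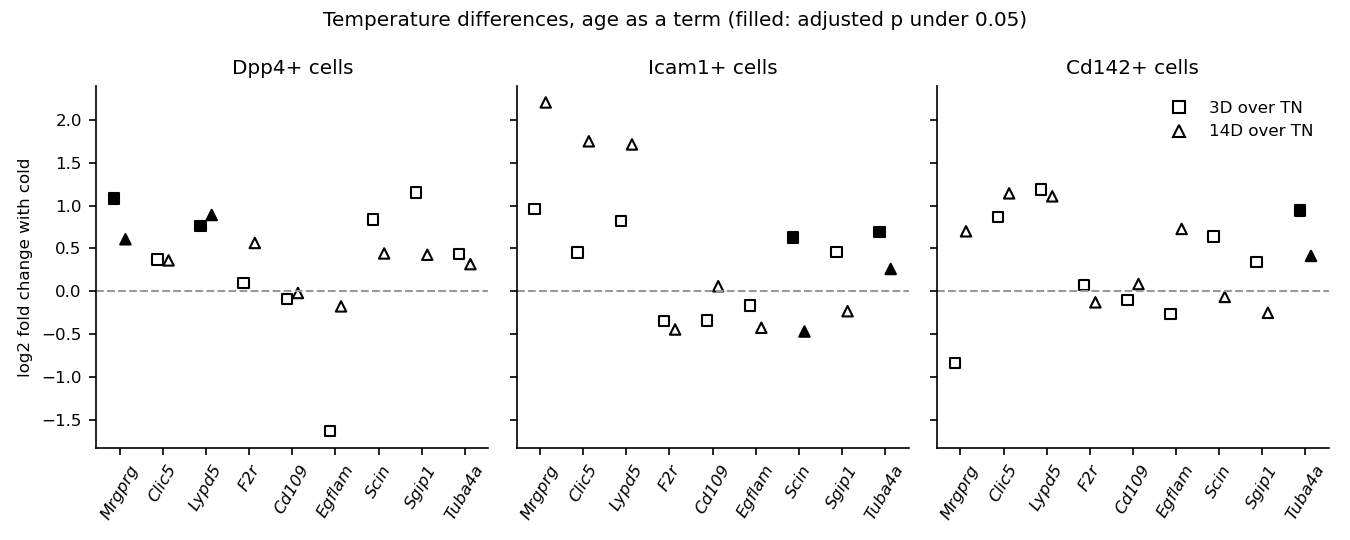
Log2 difference of 3D cold (squares) and 14D cold (triangles) over TN for each gene in Dpp4+, Icam1+ and Cd142+ cells, with age as a term. Filled symbols mark genes whose joint test of both differences had an adjusted p under 0.05 (Mrgprg and Lypd5 in Dpp4+, Scin and Tuba4a in Icam1+, Tuba4a in Cd142+ cells), and the large open values belong to genes of few UMIs in that class.

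Whether the age difference was of another size in the cold than at TN was tested with both cold times taken as 2 samples of cold. None of the 27 pairs of gene and class was called by edgeR or by DESeq2, and 0% of all genes were in each of the 3 classes. The test had little power. In simulated counts with 200 genes changed by log2 1, edgeR recovered 6.5%, 11.5% and 2.5% of them in Dpp4+, Icam1+ and Cd142+ cells. The lack of calls therefore cannot show that the age difference was of the same size in the cold. At an unadjusted p under 0.05, edgeR had 1 of 27 pairs, Lypd5 in Dpp4+ cells (log2 0.78 ± 0.31), and 329, 338 and 304 of all genes in Dpp4+, Icam1+ and Cd142+ cells. The estimates left room for differences of either sign, as for Mrgprg in Dpp4+ cells (-0.55 ± 0.52), Sgip1 in Icam1+ cells (-0.58 ± 0.50) and Tuba4a in Icam1+ cells (0.02 ± 0.38).

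The relatives of the 9 genes by family or pathway, 144 genes listed by function, were tested for age over the 6 libraries. The relatives were not picked by how they moved, but earlier results of these data were known when the lists were made. In Dpp4+ cells 25 of 101 relatives tested were called (24.8%, 17 higher and 8 lower), against 16.3% of all genes. In Icam1+ cells 23 of 99 were (23.2%, 15 and 8), against 13% of all genes, and in Cd142+ cells 16 of 96 (16.7%, 14 and 2), against 12.1%. Calls are at an adjusted p under 0.05 by edgeR with temperature as a term, and values are log2 differences ± SE. The median log2 differences of the relatives were -0.01, 0.03 and -0.01, against 0.00 over all genes in each class. Among the called relatives named below, the ages overlapped in CPM for Mrgprf and Tuba1c in Cd142+ cells. They also did for Ly6k, Dab2 and Tubb4a in Icam1+ cells and for Gna13 and Utrn in Dpp4+ cells.

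Ezr, the gene of ezrin, to which CLIC proteins are tied, rose with age in all 3 classes, by 1.57 ± 0.09 in Dpp4+, 1.52 ± 0.12 in Icam1+ and 1.63 ± 0.15 in Cd142+ cells on the log2 scale. Of the 10 CLIC and ERM partners, 9, 9 and 8 were tested and 2, 2 and 3 rose, among them Clic6 in Cd142+ (1.41 ± 0.31) and Slc9a3r1 in Dpp4+ cells (0.49 ± 0.07). Of the 19 relatives of Mrgprg only 2 passed the filter on low counts in each class. Mrgprf, an orphan receptor gene, fell in Cd142+ cells (-0.64 ± 0.17, 14.4 to 9.24 CPM). Among relatives of Lypd5, 3 of 12 rose in Dpp4+ cells, with Lypd2 (1.05 ± 0.26) and Gpihbp1, an anchor of lipoprotein lipase on capillary endothelium (1.70 ± 0.28). Gpihbp1 was at 14.2 CPM in the aged 14D cold library and at 2.93 and 3.49 CPM in the other aged ones, the order of the endothelial marker sum. In Icam1+ cells 2 of 10 rose and 2 fell, with Ly6k at 1.18 ± 0.32, and in Cd142+ cells 1 rose and 1 fell.

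For F2r, other receptors of the family were too low to be tested in any class. Serpine2, which encodes the thrombin inhibitor protease nexin-1, rose in Icam1+ (0.75 ± 0.07) and Cd142+ cells (0.57 ± 0.08), and Gna13, a G protein subunit PAR1 signals through, rose in Cd142+ (0.32 ± 0.08) and Dpp4+ cells (0.21 ± 0.06). Thbd, the gene of thrombomodulin, fell in Icam1+ cells (-0.63 ± 0.07, 104 to 66.6 CPM) and rose in Dpp4+ cells (0.40 ± 0.07, 249 to 329 CPM). Of the 10 tested genes of this list 2 rose in Dpp4+ cells, 1 rose and 2 fell in Icam1+ cells, and 2 rose in Cd142+ cells. Among relatives of Cd109, 5 of 12 rose and 1 fell in Dpp4+ cells, 4 rose and 2 fell in Icam1+ cells, and 4 rose in Cd142+ cells. Tgfb2, a TGF-beta ligand, rose in Dpp4+ (0.54 ± 0.06) and Cd142+ cells (0.72 ± 0.09), Hc, the gene of complement C5, in Dpp4+ (2.40 ± 0.61, at most 0.754 CPM) and Icam1+ cells (1.56 ± 0.24), and C4b rose in Dpp4+ (0.58 ± 0.07) but fell in Icam1+ cells (-0.61 ± 0.15).

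Of the 18 tested genes of the dystroglycan complex around Egflam, 2 rose and 4 fell in Dpp4+ cells, 1 rose and 1 fell in Icam1+ cells, and 1 rose in Cd142+ cells. Lama2, a laminin that binds dystroglycan, fell in Dpp4+ cells (-0.50 ± 0.06, 314 to 222 CPM), Sgcd, a sarcoglycan gene, rose in Icam1+ cells (1.17 ± 0.22), and Utrn, the gene of utrophin, rose in Cd142+ (0.51 ± 0.11) and Dpp4+ cells (0.20 ± 0.06). In the gelsolin family around Scin, Capg, an actin-capping protein gene, rose in Dpp4+ (0.64 ± 0.06), Icam1+ (0.59 ± 0.06) and Cd142+ cells (0.49 ± 0.08). Vill rose in Dpp4+ (1.88 ± 0.44) and Icam1+ cells (1.48 ± 0.28) from levels of at most 1.1 CPM, and Svil fell in Dpp4+ cells (-0.25 ± 0.06). Of 6, 7 and 6 tested, 2, 2 and 1 rose. Among the endocytic adaptors around Sgip1, 1 of 18 was higher and 1 lower in Dpp4+ cells and 1 of 17 higher in Icam1+ cells. They were Itsn2 (0.28 ± 0.06) and Sh3gl1 (-0.24 ± 0.06) in Dpp4+ cells and Dab2 (0.37 ± 0.07) in Icam1+ cells. Among tubulins, Tubb3 rose in Icam1+ (1.40 ± 0.12) and Cd142+ cells (1.23 ± 0.26), Tuba1c rose in Cd142+ cells (0.48 ± 0.12) and Tubb4a fell in Icam1+ cells (-0.74 ± 0.20). In Dpp4+ cells, where Tuba4a itself was higher, the other tubulin and tyrosination genes had a median log2 difference of -0.04 over 14 tested, and 1 of them fell.

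Over the 18 sums of 3 ASPC classes in 6 libraries, the genes whose log2 CPM ran most like each member were listed, as a description. Points of 1 library or class share their depth and cells, and genes were not independent. Mrgprg ran most like Clic5 (Pearson r = 0.956), Itpr3 (0.954), a calcium channel gene of the endoplasmic reticulum, and Snx16 (0.949). Clic5 ran most like Gngt2 (0.986), a G protein gamma subunit gene, and Lypd5 like Mrgprg (0.906) and Clic5 (0.900). F2r ran like Sgip1 (0.954) and Fam78b (0.942), and Egflam like Fam78b (0.940) and F2r (0.938). Cd109 ran most like Ezr (0.908), Ndrg1 (0.907) and Ier3 (0.887), and Scin like Cpeb1 (0.920). Sgip1 ran like Snu13, Mlana (both 0.977) and Bag3 (0.974), and Tuba4a like Rbm42 (0.928) and Cavin2 (0.921).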

How the data were processed

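Single-cell libraries of stromal vascular cells were made with a 10x 3' kit, and the authors aligned reads to mm10 and counted UMIs with Cell Ranger 3.1.0. The deposited values are raw UMI counts per gene and cell for 6 libraries, 1 per age and temperature. The 9 genes and all gene lists were chosen with earlier results of these data known.

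Cells were kept with at least 200 genes and within 3 median absolute deviations of their library's median for genes, UMIs and mitochondrial share, and were gated by fixed marker genes. The gate's limits were set after marker detection was seen. An ASPC needed at least 3 markers of its class and a lead of 0.25 SD over the next class. Doublets were removed only in an alternative.

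Counts were summed per library and class and tested with edgeR 4.0.16 (quasi-likelihood, TMM, filter on low counts, Benjamini-Hochberg over all genes, threshold 0.05) in R 4.3.3, after the code was tested on simulated data. The terms were age and temperature, age and cold with their interaction, or class with library as a block. Class tests used libraries with at least 20 cells of a class. Age differences of the 9 genes were given without a test. Shares were computed at 2000 UMIs per cell (alternatives 1000 and 4000).

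Named genes were all 9 members, up to 3 relatives per list with the largest log2 change among those called for age in any ASPC class, and the 3 genes of highest Pearson r to each member among those of at least 10 CPM. Alternatives were DESeq2 1.42.0, other scaling, no filter, other cell limits (1000 to 7000 genes, up to 10% mitochondrial), a stricter gate of 0.75 SD, dropped terms and each library left out. The alternatives of class differences in young or aged libraries alone were added after the data were seen. Counts limit precision: a share of 0 allows up to 3 counts of the cells examined.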

Additional observations from a re-analysis of the deposited data

Results flagged for a closer look

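In these pairs of classes every temperature moved one way with age in one class and the opposite way in the other, and none of the differences between classes was tested. F2r, the thrombin receptor gene, had a log2 ratio of the aged over the young mean of -0.41 in endothelial and of -1.12 in SMC/pericyte cells, against 2.60 in Icam1+ cells, and the SMC/pericyte values rest on 5 to 14 UMIs per library. Cd109 had -0.50 in endothelial cells, from 6 to 32 UMIs per library, against 2.95 in Icam1+ cells. Egflam had -0.63 in Cd142+ cells against 2.77 in Icam1+ cells, and in Cd142+ cells the 2 ages overlapped.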

How the results depend on the processing

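The count of temperature calls among the 27 pairs of gene and class, 5 in the report, was 3 with DESeq2, 0 without the age term (edgeR), 14 without the filter on low counts and 3 with the stricter gate, and 3 to 11 with a library left out, lowest without aged TN and highest without young 14D cold. Lypd5 in Dpp4+ cells lost its call with 2 of the aged libraries left out in turn, and Tuba4a in Icam1+ cells without young 3D cold (adjusted p = 0.11, edgeR). Scin in Icam1+ cells, at -0.47 for 14D cold over TN on the log2 scale, ran from -0.61 without young 14D cold to 0.015 without aged 14D cold. The 64 age calls among relatives were 39 with DESeq2, 19 without the temperature term and 45 to 62 with a library left out. The median ratio of observed to Poisson share in aged cells, 0.963, was 0.933 at 4000 UMIs. The cause was not tested in these cases. Class calls, 33 of 45, stayed within 24 and 36 in all 14 alternatives, 29 to 34 of them with a library left out. The median age difference of 2.44 stayed within 2.08 to 2.77 in all 14, and the interaction had 0 calls in all 10. The aged 14D cold library, with 36.5% of kept cells under 2000 UMIs, limits what can be said of 14D cold.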
